A study of Mus musculus with 4 samples.

Results

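The proteasome is the protease that degrades proteins tagged with ubiquitin, and its genes were compared between Beta-TC-6 cells transfected with siRNA against NF90 and cells transfected with a control siRNA. The genes were taken by symbol, as every gene named Psma, Psmb, Psmc, Psmd, Psme, Psmf or Psmg with a number, and Pomp. This gave 50 of the 22180 genes measured. Of them, 48 encode proteasome subunits, regulators or assembly factors. The other members, Psmc3ip and Psme3ip1, share the symbol and encode proteins named as partners of Psmc3 and Psme3.

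Beta-TC-6 is an established mouse pancreatic beta cell line that secretes insulin. NF90 binds double-stranded RNA. Per the labels, the siNF90 group received a mixture of 3 duplexes against NF90 and the siNTC group a negative control siRNA, both with the same lipid reagent and in medium with high glucose, and each group had 2 Affymetrix Mouse Gene 2.1 ST arrays. No time after transfection is given. The labels leave unsaid whether replicate arrays stem from separate cultures, so each p-value reflects array-to-array spread that may be technical.

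The core particle is a barrel of alpha rings, which gate the entry, and beta rings, in which Psmb5, Psmb6 and Psmb7 carry the active sites. A regulatory particle made of a base, with a ring of ATPases, and a lid binds ubiquitinated proteins, removes the ubiquitin and feeds the chain into the core. Immune signals exchange the active subunits for Psmb8, Psmb9 and Psmb10, and the transcription factor Nfe2l1 is known to raise the subunit genes together when the proteasome is impaired. Beta cells make secretory protein in bulk and rely on the proteasome to clear chains that fold badly.

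Values are the deposited log2 values, and each difference is siNF90 minus siNTC on the log2 scale, fitted across all genes with limma. The differences of the proteasome genes centred near 0. None of the 50 passed limma's test over all genes at an adjusted p under 0.05 (smallest adjusted p = 0.439), where the background is 0% of all genes. The median difference was -0.02 over the 50 genes and 0.01 over all genes, with 22 genes above 0, 27 below and 1, Psme4, at 0. At an unadjusted p under 0.05 there were 3 members, or 6%, against 10.3% of all genes and 14.3% of the genes whose level reached the median of 1.84. These were Psmb5 and Psmc5, higher in siNF90, and Psme3, lower. All genes had 5.87% higher and 4.41% lower at that threshold.

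**Figure D1:**
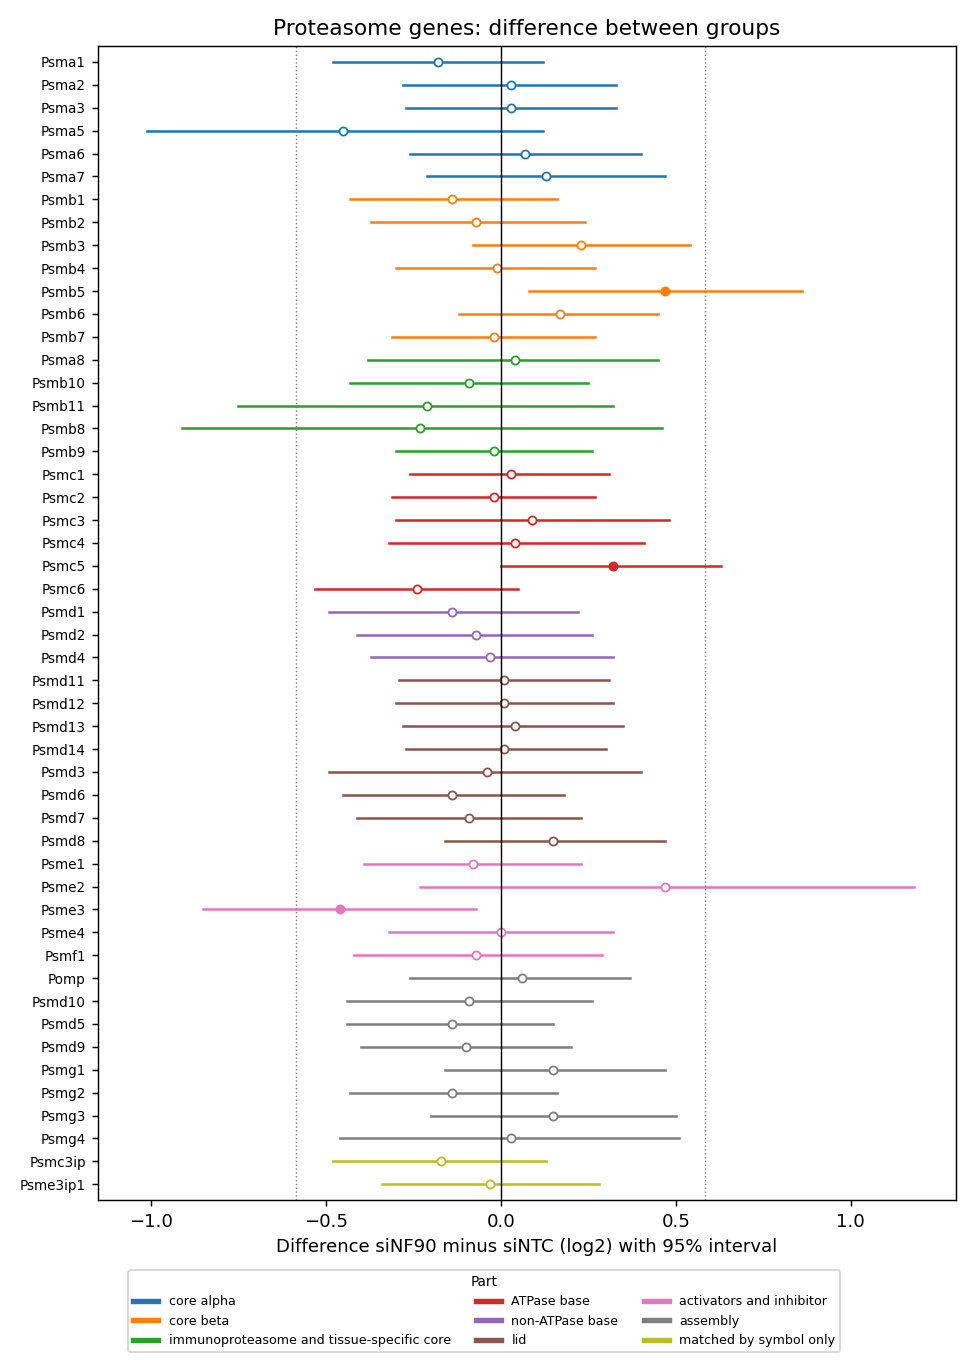
Difference siNF90 minus siNTC (log2, horizontal axis) for each of the 50 genes, coloured by part, with the 95% interval of limma's fit as a bar. Filled points have an unadjusted p under 0.05 (Psmb5, Psmc5 and Psme3), and dotted lines mark a 1.5-fold difference in either direction, within which 43 of the 50 intervals lie.

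The intervals were narrow enough to bound most members. The 95% interval of the difference, not adjusted for the number of genes, lay within 1.5-fold in either direction for 43 of the 50 genes (86%) for 67.1% of all genes and for 64.5% of the genes whose level reached the median. It lay within 2-fold for 48 genes, with Psma5 and Psme2 the exceptions, and for 96.6% of all genes. The median absolute difference of the members was 0.09, below the median gap between the arrays of a group, which was 0.12 in siNTC and also 0.12 in siNF90. Over all genes these values were 0.13 for the difference and 0.15 for either gap. The difference was larger than both gaps in 13 members (26%), in 28.8% of all genes and in 36.2% of the genes whose level reached the median.

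**Figure D2:**
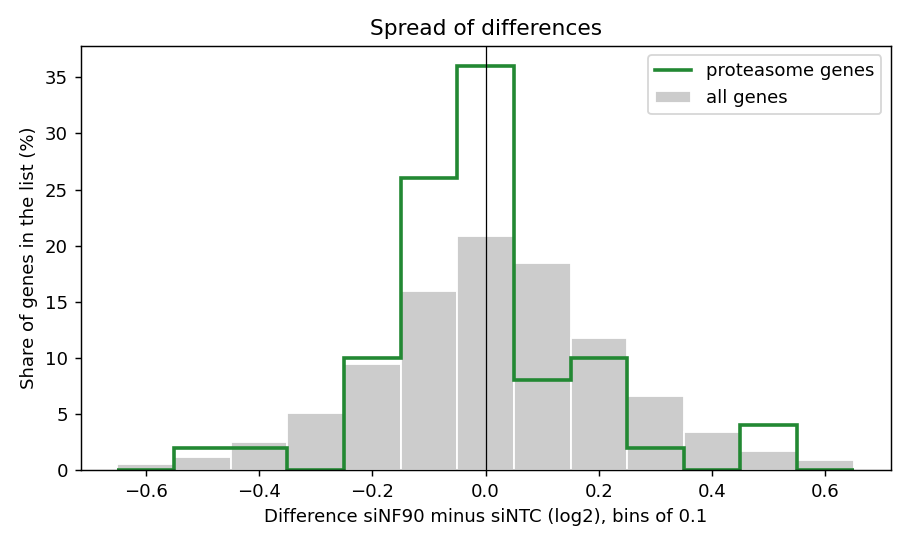
Share of genes (%, vertical axis) by difference siNF90 minus siNTC (log2, horizontal axis, bins of 0.1) for the 50 proteasome genes (outline) and for all 22180 genes (filled bars). The bin around 0, from -0.05 to 0.05, holds 36% of the proteasome genes and 20.9% of all genes, and 1.35% of all genes lie beyond the axis.

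The siNF90 arrays were both above the siNTC pair in 6 members, against 21.9% of all genes, and both below it in 9, against 17.9%. In the other 35 members the groups overlapped. Separation thus occurred in 30% of the members and 39.8% of all genes. It occurred in 47.8% of the genes whose level reached the median, as that of 44 members did. The members above were Psmb3, Psmb5, Psmb6, Psmc5, Psmd8 and Psmg1. Those below were Psma1, Psmb1, Psmc6, Psmd5, Psmd6, Psmd9, Psme3, Psmg2 and Psmc3ip. Psmc3ip is one of the genes matched by symbol only, which leaves 8 proteasome genes below.

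The promoters of the 3 members at an unadjusted p under 0.05, and of Psmb8 as the immune counterpart of Psmb5, are shown because Nfe2l1 and interferon-induced factors act on proteasome genes through short motifs. Each line holds the 250 bases before the RefSeq start (GRCm38.p6), read on the gene's strand. Capitals mark any match, on either strand, to TGACNNNGC (bound by Nfe2l1 and Nfe2l2), the CCAAT box, GGGCGG (bound by Sp1) or GAAA repeated after a gap of 2 bases (as in interferon response elements). Psmb5 lies at chr14:54617996-54618245 on the minus strand. Psmc5 is at chr11:106255935-106256184, Psme3 at chr11:101315963-101316212 and Psmb8 at chr17:34197945-34198194, all on the plus strand.
Psmb5: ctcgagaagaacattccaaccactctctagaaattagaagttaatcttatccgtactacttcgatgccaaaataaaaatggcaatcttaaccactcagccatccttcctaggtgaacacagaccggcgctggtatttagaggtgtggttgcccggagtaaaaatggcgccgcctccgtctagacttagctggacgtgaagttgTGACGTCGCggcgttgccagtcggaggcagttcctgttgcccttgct
Psmc5: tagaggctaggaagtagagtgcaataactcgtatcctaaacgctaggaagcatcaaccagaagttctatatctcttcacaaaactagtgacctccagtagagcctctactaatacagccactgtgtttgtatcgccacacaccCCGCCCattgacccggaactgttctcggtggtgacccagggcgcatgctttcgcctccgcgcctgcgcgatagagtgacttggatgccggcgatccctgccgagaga
Psme3: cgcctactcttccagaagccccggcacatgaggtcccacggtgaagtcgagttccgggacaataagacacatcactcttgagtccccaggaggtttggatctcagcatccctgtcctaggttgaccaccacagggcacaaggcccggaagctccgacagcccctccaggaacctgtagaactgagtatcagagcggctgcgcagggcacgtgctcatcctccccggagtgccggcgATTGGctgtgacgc
Psmb8: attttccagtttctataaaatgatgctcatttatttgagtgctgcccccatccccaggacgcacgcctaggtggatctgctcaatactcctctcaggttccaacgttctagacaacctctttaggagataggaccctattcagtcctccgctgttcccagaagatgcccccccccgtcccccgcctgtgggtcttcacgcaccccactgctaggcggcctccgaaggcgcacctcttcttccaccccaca

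In these windows Psmb5 held TGACNNNGC with its first base at -47 from the start, Psmc5 held GGGCGG on the minus strand and Psme3 held CCAAT on the minus strand, while Psmb8 held none of these letters. Of the 42 members with a promoter in the RefSeq table, 5 held TGACNNNGC (11.9%) in at least 1 of their promoters, against 11.5% of all 27025 genes in the table counted the same way. The 5 were Psmb5, Psmb6, Psmc6, Psmd9 and Psmd12. CCAAT was found in 16 members (38.1%, against 37.5%), GGGCGG in 23 (54.8%, against 35.4%) and the GAAA repeat in 3 (7.14%, against 3.46%). None of these motifs contains another, and a match describes letters only.

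The alpha subunits form the gated outer rings of the core. Of the 7 ring genes, 6 were measured, since no probe set carried Psma4 alone, and their median difference was 0.03, with 4 above 0 and 2 below. Psma1 read 6.71 and 6.63 on the siNTC arrays and 6.54 and 6.44 on the siNF90 arrays, a difference of -0.18 ± 0.12 (SE, n = 2 arrays per group). Both siNF90 arrays were low, but the adjusted p of limma was 0.671. Psma5 read 1.72 and 2.09 in siNTC and 1.17 and 1.75 in siNF90, which overlap, with a difference of -0.45 ± 0.23. Psma5 is an obligatory ring subunit, yet its mean lay below the median level of all genes, where there is no measure of background. Its other probe set read 1.14, 1.85, 0.89 and 0.83 on the same arrays. The differences of Psma2 and Psma3 were both 0.03, that of Psma6 0.07 and that of Psma7 0.13, with overlapping groups.

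The beta subunits form the inner rings, and 7 of 7 were measured, with a median difference of -0.01. Psmb5, which carries the chymotrypsin-like site and is the main target of proteasome inhibitors, read 4.28 and 4.43 in siNTC and 5 and 4.65 in siNF90. Both siNF90 arrays were high and the first stood farthest out. The means were 4.36 ± 0.11 and 4.83 ± 0.25 (SD, n = 2 each), 1.39-fold higher in siNF90, with a 95% interval of the log2 difference from 0.08 to 0.86 (limma, unadjusted p = 0.0262, adjusted p = 0.439). Without the first siNF90 array the log2 difference was 0.29, and without the second it was 0.65. Psmb6, with the caspase-like site, read 5.49 and 5.44 in siNTC and 5.66 and 5.6 in siNF90. Those arrays were separated too, by a smaller difference of 0.17 ± 0.12 (SE). Psmb7, with the trypsin-like site, read 7.52 and 7.42 in siNTC and 7.48 and 7.42 in siNF90, which overlap, with an interval from -0.31 to 0.27. Whether the 3 catalytic genes differed from each other in their response was not tested.

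Among the structural beta subunits, Psmb3 read 2.4 and 2.53 in siNTC and 2.76 and 2.63 in siNF90, all higher in siNF90, with a difference of 0.23 ± 0.13. Psmb1 differed by -0.14 ± 0.12 and both of its siNF90 arrays lay below siNTC. Psmb2 differed by -0.07 and Psmb4 by -0.01, each with overlapping groups.

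Of the immunoproteasome genes, Psmb8 and Psmb9 lay below the median level of all genes in both groups and Psmb10 above it. Psmb8, the counterpart of Psmb5, read 1.75 and 0.88 in siNTC and 1.07 and 1.11 in siNF90. The first siNTC array alone was high, and the interval of the difference ran from -0.91 to 0.46. Psmb9, the counterpart of Psmb6, read 1.09 and 1.06 in siNTC and 1.07 and 1.04 in siNF90. These 4 values nearly coincide, and the difference was -0.02 ± 0.12. Psmb10, the counterpart of Psmb7, read 3.17 and 3.27 in siNTC and 3.01 and 3.25 in siNF90. These arrays overlap, with a difference of -0.09 ± 0.14. Psmb11, the thymus subunit, read 1.63 and 1.14 in siNTC and 0.97 and 1.37 in siNF90, again overlapping. Psma8, the testis subunit, differed by 0.04 ± 0.17. The groups overlapped in all 5 of these genes, and at the levels of Psmb8, Psmb9, Psmb11 and Psma8 the table cannot say whether the transcript was detected.

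**Figure D3:**
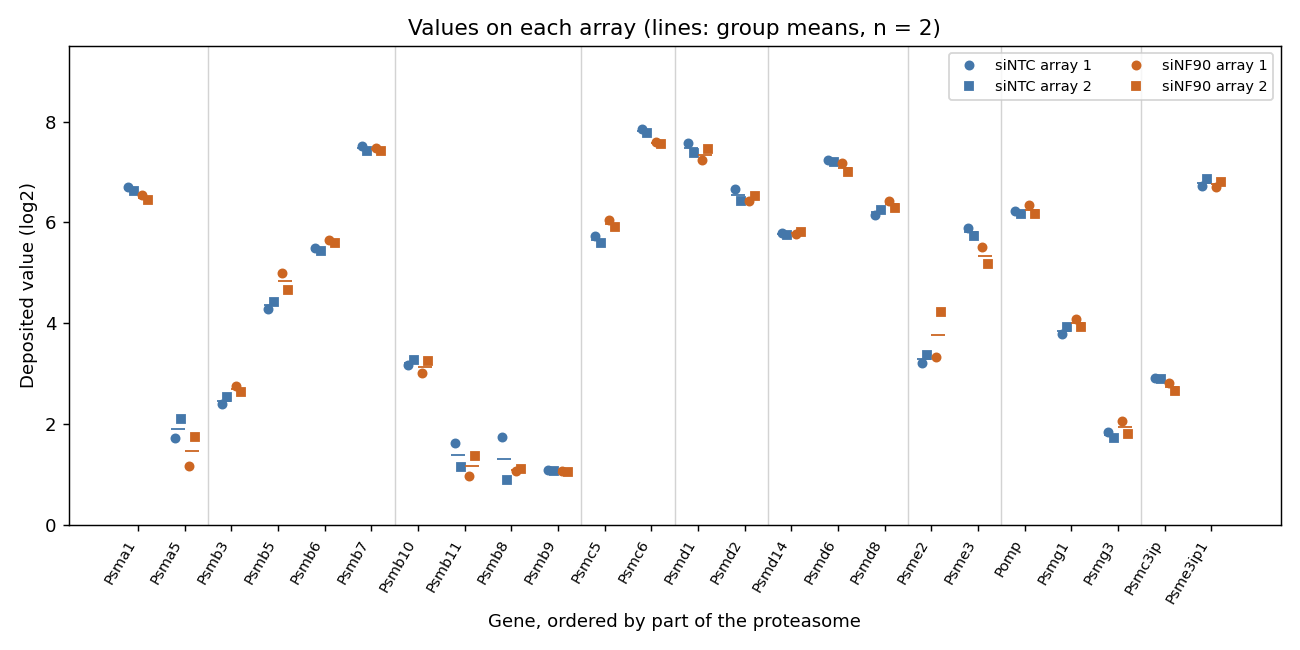
Deposited log2 value (vertical axis) on each of the 4 arrays for the 24 genes given in detail, ordered by part with grey lines between parts. Short lines are group means (n = 2), and the arrays of a group lie far apart in Psme2, where the second siNF90 array reads 4.22 against 3.32, and in Psmb8, where the first siNTC array reads 1.75 against 0.88.

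The ATPases of the base unfold the substrate, and 6 of 6 were measured, with a median difference of 0.04. Psmc5 read 5.72 and 5.59 in siNTC and 6.04 and 5.9 in siNF90. Both siNF90 arrays were high, the means were 5.66 ± 0.09 and 5.97 ± 0.1 (SD), and the difference was 0.32 ± 0.13 (SE), or 1.24-fold, with an interval from 0 to 0.63 (limma, unadjusted p = 0.0493, adjusted p = 0.485). Psmc6, another subunit of the same ring, read 7.86 and 7.77 in siNTC and 7.6 and 7.55 in siNF90. It was thus low on both siNF90 arrays, with a difference of -0.24 ± 0.12. When limma's prior was allowed to vary with expression level, Psmc6 had the smallest adjusted p of the members, 0.188, and it did not pass, while 0.455% of all genes did. Psmc1, Psmc2, Psmc3 and Psmc4 had overlapping groups and differences of 0.03, -0.02, 0.09 and 0.04. The other probe set of Psmc2 gave 0.26, on values from 2.95 to 3.55. Whether Psmc5 and Psmc6 differed from each other in their response was not tested, and protein was not measured.

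The scaffold subunits of the base, Psmd1 and Psmd2, and the ubiquitin receptor Psmd4 had a median difference of -0.07. Psmd1 read 7.57 and 7.38 in siNTC and 7.23 and 7.45 in siNF90, while Psmd2 read 6.67 and 6.43 against 6.43 and 6.52. The groups overlapped in these and in Psmd4, which differed by -0.03 ± 0.14.

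The lid holds Psmd14, the enzyme that cuts ubiquitin off the substrate before it enters the core. It read 5.79 and 5.74 in siNTC and 5.76 and 5.8 in siNF90, which overlap, and the interval of the difference was -0.27 to 0.3. Psmd8 read 6.15 and 6.25 in siNTC and 6.43 and 6.28 in siNF90, a difference of 0.15 ± 0.13. Psmd6 read 7.24 and 7.2 in siNTC and 7.18 and 6.99 in siNF90, a difference of -0.14 ± 0.13. Psmd8 was thus high and Psmd6 low on both siNF90 arrays. The other 5 lid genes, Psmd3, Psmd7, Psmd11, Psmd12 and Psmd13, had overlapping groups and differences from -0.09 to 0.04. The median of these 8 lid genes was 0.01, and all 8 intervals lay within 1.5-fold. Sem1, a lid subunit whose symbol the rule did not take, differed by 0.24 ± 0.13, with both siNF90 arrays above siNTC.

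Activators replace the regulatory particle on the core and act without ubiquitin. Psme3, the nuclear activator, read 5.88 and 5.72 in siNTC and 5.51 and 5.17 in siNF90, so both siNF90 arrays were low. Its means were 5.8 ± 0.11 and 5.34 ± 0.24 (SD), 1.38-fold lower in siNF90, with an interval of the log2 difference from -0.85 to -0.07 (limma, unadjusted p = 0.0278, adjusted p = 0.44). The log2 difference was -0.63 without the first siNF90 array and -0.29 without the second. Psme2, a subunit of the interferon-induced activator, read 3.22 and 3.37 in siNTC and 3.32 and 4.22 in siNF90. The second siNF90 array alone was high, and the difference of 0.47 ± 0.29 was 0.93 without the first siNF90 array and 0.03 without the second. RefSeq lists a copy named Psme2b, and whether the probes tell the copies apart was not tested. Its partner Psme1 differed by -0.08 ± 0.13, the activator Psme4 by 0 ± 0.13 and the core regulator Psmf1 by -0.07 ± 0.15, each with overlapping groups.

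Assembly factors bring the rings together and then leave. Pomp, which recruits the beta subunits and is consumed by the finished core, read 6.23 and 6.17 in siNTC and 6.35 and 6.16 in siNF90, with overlapping groups and a difference of 0.06 ± 0.13. Psmg1, which guides the alpha ring with Psmg2, read 3.78 and 3.92 in siNTC and 4.08 and 3.93 in siNF90, a difference of 0.15 ± 0.13. Psmg2 differed by -0.14 ± 0.12, and by 0.35 on its other probe set, which read between 0.68 and 1.28. On the probe sets used, the arrays of the pair were thus separated in opposite directions, neither past the test. Psmg3 read 1.84 and 1.73 in siNTC and 2.07 and 1.8 in siNF90, which overlap, and Psmg4 differed by 0.03 ± 0.2 from a level under the median of all genes. Of the chaperones of the base, Psmd5 differed by -0.14 ± 0.12, Psmd9 by -0.1 ± 0.12 and Psmd10 by -0.09 ± 0.14. The median over the 8 assembly genes was -0.03, and all 8 intervals lay within 1.5-fold.

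Of the genes matched by symbol only, Psmc3ip, which acts in meiotic recombination, read 2.92 and 2.89 in siNTC and 2.81 and 2.65 in siNF90, a difference of -0.17 ± 0.12. Psme3ip1, a binding partner of Psme3, read 6.72 and 6.86 in siNTC and 6.71 and 6.81 in siNF90. Its groups overlapped.

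Genes that control, feed or attach to the proteasome formed a list of 33, which also holds the subunits Sem1 and Adrm1. Of the 33, 24 were measured and none passed over all genes (limma, smallest adjusted p = 0.409). Their median difference was 0.02, with 12 above 0 and 12 below. At an unadjusted p under 0.05 there were 5 higher and 1 lower, which is 25% of the list beside 10.3% of all genes and 14.3% of genes that reached the median level. The arrays were separated in 16 of the 24 (66.7%), 9 above and 7 below, beside 39.8% of all genes and 47.8% of those at or above the median level. No test of the list was made, and it was chosen with earlier results of these data known.

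Of these 6 genes, Ubqln2, a shuttle that binds ubiquitin chains and the proteasome, read 6.69 and 6.96 in siNTC and 7.3 and 7.29 in siNF90, a difference of 0.47 ± 0.14 (limma, unadjusted p = 0.0153, adjusted p = 0.409). Ubqln4, of the same family, read 3.41 and 3.46 in siNTC and 4.06 and 3.71 in siNF90, a difference of 0.45 ± 0.15. Both siNF90 arrays were high for both, while Ubqln1 differed by 0.09 ± 0.13 with overlapping groups. Ufd1, a cofactor of the segregase Vcp, read 5.76 and 5.74 in siNTC and 6.13 and 6.05 in siNF90, a difference of 0.34 ± 0.12. Its partner Nploc4 differed by 0.18 ± 0.12 and Vcp by -0.14 ± 0.13.

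Akirin2, which carries proteasomes into the nucleus, read 6 and 6.16 in siNTC and 6.51 and 6.4 in siNF90, a difference of 0.38 ± 0.13. Midn, which delivers nuclear proteins to the proteasome without ubiquitin, read 3.22 and 3.38 in siNTC and 3.55 and 3.82 in siNF90, a difference of 0.39 ± 0.15. Both genes were thus high on both siNF90 arrays. Uba6, an enzyme that activates ubiquitin, read 7.34 and 7.51 in siNTC and 6.97 and 7.18 in siNF90, a difference of -0.35 ± 0.14, and low on both siNF90 arrays. The unadjusted p of these 6 genes in limma lay between 0.0153 and 0.0463. It was 0.0544 for Uba6 with arrays quantile-normalized and 0.0548 with arrays centred on their medians, 0.053 for Akirin2 with the replicate block and 0.0535 for Midn with the level-dependent prior. Leaving out 1 array moved the difference of Ubqln4 to 0.28 (without the first siNF90 array) and that of Midn to 0.25 (without the second).

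**Figure D4:**
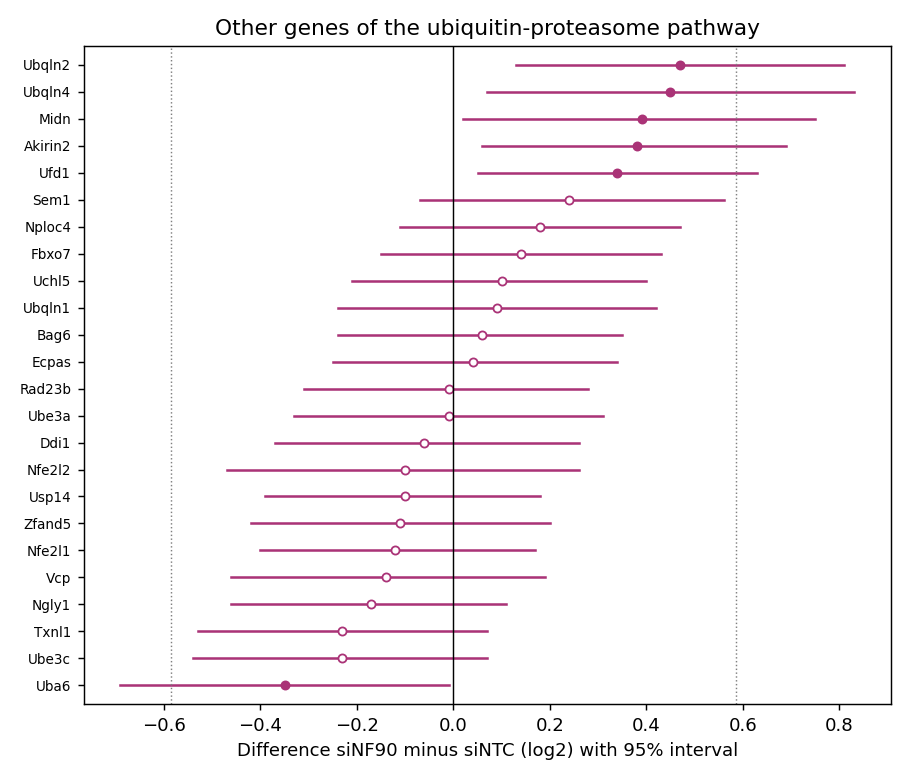
Difference siNF90 minus siNTC (log2, horizontal axis) with its 95% interval for the 24 measured genes of the ubiquitin-proteasome pathway list, in order of the difference. The list includes the lid subunit Sem1. Filled points have an unadjusted p under 0.05, 5 above 0 and Uba6 below, and dotted lines mark a 1.5-fold difference.

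The controllers of subunit expression gave no call. Nfe2l1 read 4.7 and 4.64 in siNTC and 4.58 and 4.53 in siNF90, a difference of -0.12 ± 0.12 with both siNF90 arrays low. Ngly1, the enzyme that processes Nfe2l1, differed by -0.17 ± 0.12 and Nfe2l2 by -0.1 ± 0.15. Ddi2 and Adrm1 had no probe set with that symbol alone and were not analysed here. Of the enzymes that trim ubiquitin at the proteasome, Usp14 read 6.61 and 6.56 in siNTC and 6.47 and 6.49 in siNF90, while Uchl5 read 6.74 and 6.59 against 6.76 and 6.76. Usp14 was low and Uchl5 high on both siNF90 arrays, by -0.1 ± 0.12 and 0.1 ± 0.12.

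Genes of antigen processing, which are often induced with the immunoproteasome, gave no member at an unadjusted p under 0.05 among 7 measured of 8. Their median difference was 0.01. B2m, the light chain of class I molecules, read 5.88 and 5.82 in siNTC and 5.65 and 5.5 in siNF90, while Tap1, a peptide transporter, read 1.48 on both siNTC arrays and 1.79 and 1.24 on the siNF90 arrays. B2m was low on both siNF90 arrays and Tap1 overlapped. The arrays were separated in 3 of the 7 genes (42.9%), beside 39.8% of all genes. Besides B2m these were Tapbp, above (0.21 ± 0.12), and Erap1, below (-0.17 ± 0.12).

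The arrays of a group correlated at 0.9927 in siNTC and 0.9919 in siNF90 (Pearson's r over genes, which do not replicate each other), and array medians lay between 1.65 and 1.68. Of 12 measured markers of beta cells, 11 lay at or above the median level, and Ucn3 did not. Ins2 differed by -0.04 ± 0.12 and Iapp by -0.17 ± 0.13. At an unadjusted p under 0.05, Nkx6-1 (0.45 ± 0.12) and Mafa (0.38 ± 0.15) were higher and Slc2a2 (-1.08 ± 0.13) and Kcnj11 (-0.45 ± 0.14) lower. Among these markers Slc2a2 passed with the level-dependent prior (limma, adjusted p = 0.0153). Of 11 measured markers of stroma, endothelium and blood, only Cd68 lay at or above the median level. Cd68 was higher in siNF90 by 1.12 ± 0.12 (limma, adjusted p = 0.342). It passed with a prior that varies with expression level (limma, adjusted p = 0.0217). Cdh5 was lower at an unadjusted p under 0.05 in limma (-0.36 ± 0.14), from values of 0.81 to 1.35. The leukocyte marker Ptprc read between 0.92 and 1.33 on all arrays. The myeloid markers Adgre1 and Itgam differed by -0.03 ± 0.12 and 0.08 ± 0.13, with overlapping groups. Of the 11 markers, 3 were separated above and 1 below, or 36.4% beside 39.8% of all genes. Besides Cd68 and Cdh5 these were Col1a1 (0.28 ± 0.15) and Dcn (0.27 ± 0.15), both above and from levels under the median. Of 6 measured markers of other islet cells, 2 were separated above and 1 below, or 50% beside 39.8% of all genes. Gcg, the alpha cell hormone, read between 8.5 and 8.88 and was above, by 0.2 ± 0.14. Irx2 was above too (0.3 ± 0.15), and Sst was below (-0.23 ± 0.13). Of 7 measured exocrine and duct markers, 1 was separated (14.3%), Bhlha15, above by 0.26 ± 0.14. The number of arrays limits the precision, and a change of RNA per cell cannot be told apart from a change in cell makeup.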

How the data were processed

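Per the file headers and the labels, the authors deposited 1 table of log2 values per probe set for 4 arrays, which the submitters' processing notes credit to Transcriptome Analysis Console. Its version, normalization and log base were not given in the sources used here. Base 2 was taken from the range of the values. Of 41345 probe sets, 23521 carry 1 symbol in the platform annotation, 1814 several and 16010 none here. Per gene, the probe set with the highest mean was used. Limma 3.58.1 (R 4.3.3, lmFit and eBayes without a trend) gave the difference between siNF90 and siNTC over 22180 genes, with Benjamini-Hochberg adjustment and two-sided p-values (2 residual and 3.92 prior degrees of freedom). With 2 arrays a side, the smallest two-sided permutation p is 0.33, so no such test was run.

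In 10 simulated data sets, 200 of 22180 genes were raised in siNF90, equal numbers by 1 and by 2 on the log2 scale. Changes of 1 were recovered in 44.5% of genes and changes of 2 in 96.1%, and 4.77% of the calls were false. Calls at changes of 2 ease the adjustment for changes of 1, and recovery without them was not tested. Recovery of changes under 1 was not tested, and the differences of the members ran from -0.46 to 0.47. On the measured arrays, Cd68 differed by 1.12 and Slc2a2 by -1.08, and neither passed in the main fit (limma, adjusted p = 0.342 for each). The members, lists and rules for naming genes were chosen with earlier results of these data known. Values per array are given for members at an unadjusted p under 0.05, the 2 largest differences of each part, the catalytic subunits, Psmd14 and Pomp. Of the pathway list, Nfe2l1, Usp14, Uchl5 and those at that threshold are given per array. How far NF90 was depleted is not reported here. Promoters are from RefSeq (GRCm38.p6). Coordinates are those of the RefSeq promoters, not of probe sets.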

Additional observations from a re-analysis of the deposited data

How the results depend on the processing

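In none of the 11 alternatives did a proteasome or pathway gene pass over all genes. These were a fit with the replicate block, a prior with a trend, a robust prior, arrays normalized by quantiles, arrays centred on medians, only genes reaching the median level, averaged probe sets and each array left out in turn. With the trend 101 of all genes passed, where none otherwise did. The replicate number is not stated to mark a shared culture or day, so the replicate block is an alternative only. As a check, same-numbered arrays did not deviate together (r = -0.02 across genes). Under the block 0 members were higher and 2 lower at an unadjusted p under 0.05, with limma's p at 0.0585 for Psmb5 and 0.054 for Psmc5. The count higher was 1 with the robust prior (Psmc5 at 0.0507), and the count lower was 2 with the trend and 2 with the mean of probe sets. Leaving out an array gave 0 to 1 higher (0 without either siNTC array) and 0 to 1 lower (0 without the first siNTC array), in fits with fewer degrees of freedom. Separated members then numbered 11 to 16 above and 16 to 22 below, since fewer arrays separate more easily. The share of all genes separated was not counted with an array left out. That at an unadjusted p under 0.05 was counted only in the main fit. The counts of this paragraph at that threshold, and of separated members, thus have no background beside them. Of the pathway genes, 3 were lower with the trend, and 0 with quantile normalization and 0 with median centring; leaving out an array gave 0 to 2 higher (0 without the first siNTC array, 1 without the first siNF90 array) and 0 to 1 lower (1 without the second siNF90 array).

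The median over all members lay between -0.03 and 0 in the 8 alternatives run on it, beside -0.02 in the main fit. In each it moved by no more than the SD of that median between the arrays of a group, taking the larger SD. Leaving out an array, the median of the core alpha genes ranged from -0.04 to 0.09, that of core beta from -0.02 to 0.03, of the immunoproteasome and tissue-specific genes from -0.21 to -0.01, of the ATPase base from 0 to 0.1, of the non-ATPase base from -0.2 to -0.03, of the lid from -0.04 to 0.05, of the activators from -0.16 to 0.05 and of the assembly genes from -0.04 to -0.01, so the sign turned in core alpha, core beta, the lid and the activators. With the mean of probe sets, the ATPase base median was 0.07 and the assembly median 0.04, and with the filter on level the assembly median was -0.09 over 7 genes. The differences of Psmb5, Psmc5, Psme3 and the 6 named pathway genes kept their sign in every alternative, which is no support for them. Their groups do not overlap, so leaving out 1 array could not turn the sign. The block and the other priors leave the difference itself unchanged. Psme2, whose groups overlap, kept its sign only at 0.03 without the second siNF90 array. The table holds no measure of signal over background, which limits what can be said of low members.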
